A study of Mus musculus with 4 samples.

Results

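Cycling epithelial cells of mouse lung tumours were described here, as 486 of 15189 epithelial cells and of 27399 barcodes that passed the depth limits in 4 single-cell RNA libraries. A barcode was kept with at least 2000 unique molecular identifiers (UMIs, each standing for 1 captured RNA molecule) and at most 20% of them from mitochondrial genes. It was taken as epithelial with at least 2 UMIs in the sum of Epcam, Cdh1, Krt8, Krt18 and Cldn18 and none of Ptprc, Cdh5 or Col1a2, genes of immune, endothelial and stromal cells. It was taken as cycling when Top2a, Mki67, Birc5, Ccna2 and Ube2c summed to at least 4 UMIs per 10000 UMIs of the cell. The values of those 5 genes chose the cells, so the contrast between cycling and other epithelial cells is described and not tested.

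All 4 libraries came from lung tumours of mice whose alleles included p53frt, Rosa-FSF-CreERT2 and Hnf4aflox. Tumours were started with an adenovirus that expresses the FlpO recombinase from the mouse surfactant protein C promoter, which is active in alveolar type 2 cells, and FlpO then removes p53 and switches on CreERT2. At 10 weeks after infection mice received tamoxifen, which activates CreERT2 and lets it delete Hnf4a, or vehicle, which the labels name as ethanol in one field and as corn oil in another. Cells were collected 2 weeks later from macroscopic tumours, and each suspension gave a library before and a library after magnetic depletion of CD45 and CD31 positive cells. The number of mice and tumours behind a suspension is not given in the sources used here. A treatment's libraries share their material and do not replicate each other, so no comparison below has a replicate check, and intervals cover counting error only. Sets of 4 values are given throughout in the order vehicle before, vehicle after, tamoxifen before and tamoxifen after depletion.

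Cells that divide copy their DNA in S phase and separate the copies in mitosis, and cyclins with their cyclin-dependent kinases (CDKs) drive each step. D-type cyclins with CDK4 and CDK6 release E2F factors from the retinoblastoma protein family, and CDK inhibitors hold the kinases back. In the lung the alveolar type 2 cell makes surfactant and can give rise to the flat type 1 cell, and lung adenocarcinomas often arise from type 2 cells. Nkx2-1 is the factor of the lung lineage, while Hnf4a is a factor of stomach, intestine and liver, and tumours can hold both programmes at once.

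The genes that define the cycling cells are controlled in the cell cycle through short promoter elements, so the 200 bases before the start of 4 of them are shown, from RefSeq on GRCm38.p6 and read 5′ to 3′ on the strand of the gene. Capitals mark the cell cycle genes homology region, TTTGAA or TTCGAA, and the CCAAT box, which binds the factor NF-Y, on either strand (TTCAAA and ATTGG on the other strand, while TTCGAA reads the same on both). No promoter of Ccna2 was matched.
Top2a, chr11:99024190-99024389, minus strand: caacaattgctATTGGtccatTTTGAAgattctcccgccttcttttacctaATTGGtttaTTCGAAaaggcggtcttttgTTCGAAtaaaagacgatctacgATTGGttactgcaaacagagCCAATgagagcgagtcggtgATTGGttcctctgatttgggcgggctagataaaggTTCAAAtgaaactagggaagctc
Mki67, chr7:135716380-135716579, minus strand: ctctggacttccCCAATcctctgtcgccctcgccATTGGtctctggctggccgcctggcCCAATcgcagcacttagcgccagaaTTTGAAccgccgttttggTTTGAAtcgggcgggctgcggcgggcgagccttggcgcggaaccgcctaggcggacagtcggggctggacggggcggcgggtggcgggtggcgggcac
Ube2c, chr2:164769729-164769928, plus strand: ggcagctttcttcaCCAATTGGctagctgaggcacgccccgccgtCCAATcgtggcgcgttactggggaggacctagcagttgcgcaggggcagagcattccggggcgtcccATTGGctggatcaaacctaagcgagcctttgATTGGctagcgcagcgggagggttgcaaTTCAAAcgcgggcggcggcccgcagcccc
Birc5, chr11:117849037-117849236, plus strand: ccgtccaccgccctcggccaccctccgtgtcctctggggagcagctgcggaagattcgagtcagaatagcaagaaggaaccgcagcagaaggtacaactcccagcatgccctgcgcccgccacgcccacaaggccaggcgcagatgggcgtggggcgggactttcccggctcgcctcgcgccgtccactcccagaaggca
Top2a held 5 CCAAT boxes, 2 TTTGAA and 2 TTCGAA, Mki67 held 3 CCAAT boxes and 2 TTTGAA, and Ube2c held 5 CCAAT boxes, of which a pair overlaps, and 1 TTTGAA. Birc5 held 0 of each in this window. Over all 32851 promoter windows of this length 29.3% held a CCAAT box, 13.4% held TTTGAA or TTCGAA and 4.02% held both kinds. Of 29 further genes of G2 and mitosis described below, 26 were matched, 19 of them held a CCAAT box and 9 held TTTGAA or TTCGAA. A match describes the letters in the window and is not a binding site.

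Depth and 2 departures from the labels bear on all that follows. Cycling cells had a median of 30155, 27046, 38856 and 24937 UMIs against 22785, 18402.5, 25610 and 16777 in the other epithelial cells of the same libraries. They numbered 42, 175, 36 and 233, so that a level of 10 CPM (UMIs scaled to a common library sum) stood for only 13.5 and 14.5 UMIs in the libraries before depletion against 52.8 and 63.4 after it. No barcode was shared between the cycling cells of any libraries, and 0 to 9 were shared between the epithelial cells of library pairs. Hnf4a (chr2:163506808-163572910 on GRCm38) was at 52.8, 55.4, 86.9 and 82.8 CPM in non-cycling cells, higher in the libraries labelled tamoxifen. In cycling cells it was at 56.3, 46.6, 24.1 and 69.4 CPM, lower under the tamoxifen label before depletion and higher after it, so the order of the labels was not kept. The 24.1 CPM came from 35 UMIs in 9 of 36 cells, 31.4% of them in 1 cell. A 3′ count reads the end of a transcript and does not show whether floxed exons were lost, so Hnf4a RNA did not check the labels, and the libraries are called by their labels.

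Some barcodes that met the rule carried many immune RNAs. At 5 or more UMIs of 13 immune and alveolar macrophage markers per 10000 UMIs there were 5 of 42 cycling cells before depletion under vehicle and 4 of 36 under tamoxifen, and 0 after depletion in both. The 5 held 40 to 509 such UMIs and only 2 to 7 UMIs of the epithelial genes, and the 4 held 70 to 456 and 4 to 12. None of the 9 had a UMI of Nkx2-1, and their Sftpc stood at 1.01 to 16.1 per 10000 UMIs against medians of 327 and 579.9 in the remaining cycling cells of those libraries. They gave 4.66% and 4.60% of the UMIs of the cycling cells there. The markers summed over cycling cells to 128, 5.49, 417 and 4.26 CPM for immune cells, with Cd3e at 0, and to 456, 13.6, 125 and 3.78 CPM for alveolar macrophages. Values without these barcodes are given for the results that moved most, and that alternative was chosen after seeing the data. Over the remaining 477 cells the median of Sftpc was 327, 562, 579.9 and 663 per 10000 UMIs, and Nkx2-1 was seen in 36, 165, 31 and 212 cycling cells. Presence of type 2 RNA alone marks no cell type at full depth, since 94.5% and 96.8% of barcodes with Ptprc and no epithelial gene also held at least 2 UMIs of type 2 genes before depletion.

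The share of cycling cells among epithelial cells lay between 2.75% and 4.82%. It was 4.82% (42 of 872, exact 95% interval 3.49 to 6.46) and 2.75% (175 of 6357, 2.36 to 3.19) under vehicle before and after depletion. Under tamoxifen it was 3.90% (36 of 922, 2.75 to 5.36) and 3.31% (233 of 7038, 2.90 to 3.76). Before depletion the tamoxifen share was the lower one and after depletion the higher one, and the intervals overlapped in both pairs. Without the immune-marker barcodes the shares were 4.60%, 2.75%, 3.78% and 3.31%.

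The cut is a rate, so in the shallowest cells 1 UMI meets it, and 2, 2, 0 and 1 cycling cells rested on 2 or fewer UMIs of the 5 genes. With each cell thinned to 2000 UMIs the shares were 7.11%, 5.02%, 6.62% and 5.95%. At 10000 UMIs, which left 732, 5201, 774 and 5691 cells, they were 4.51%, 3.46%, 4.39% and 4.06%. After depletion the tamoxifen library was above the vehicle library at all 3 depths, and before depletion it was below it at all 3. At full depth, 129 of 2483 (5.20%) and 73 of 1518 (4.81%) barcodes with Ptprc and none of the epithelial genes met the same cut in the libraries before depletion. Those barcodes had median depths of only 5764 and 5986 UMIs and were not thinned, so their shares cannot be compared directly with the epithelial ones.

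**Figure D1:**
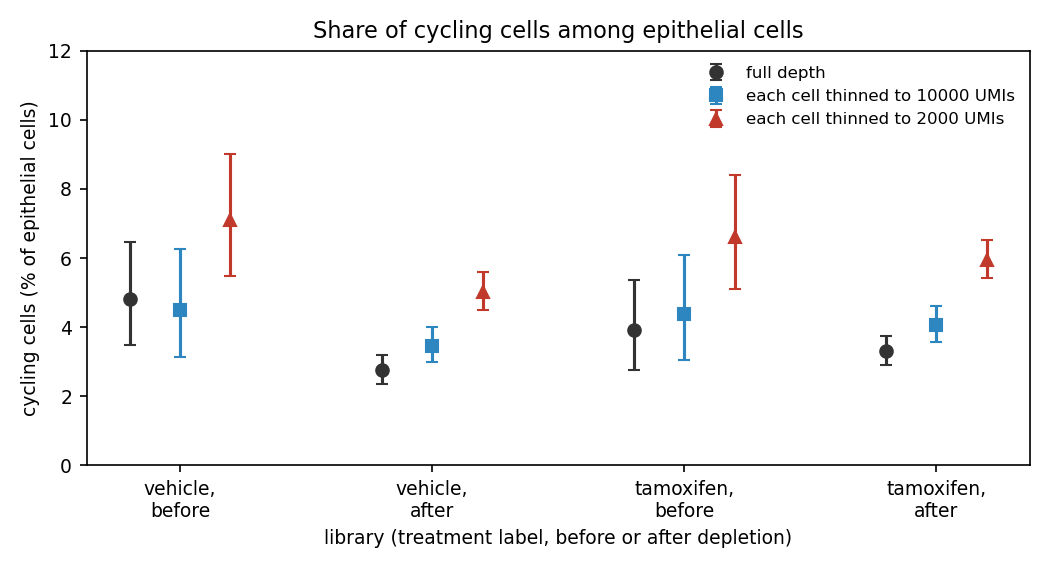
Share of cycling cells among epithelial cells (y axis, percent) in the 4 libraries (x axis), at full depth and with each cell thinned to 10000 or 2000 UMIs. Points are shares and bars are exact 95% binomial intervals, which cover counting error only. At full depth the shares run from 2.75% to 4.82%, and thinning to 2000 UMIs raises each of them.

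The cut fell on a slope and not in a gap. Of the 15189 epithelial cells 11923 had none of the 5 genes and 2538 had a rate above 0 and under 2 per 10000. A further 151 lay from 2 to under 3, 91 just outside the cut from 3 to under 4, 56 just inside it from 4 to under 5, 98 from 5 to under 8 and 332 at 8 or above. Just outside the cut the median rate of 29 genes of G2 and mitosis that the rule did not use was 7.39, 21.8, 14.9 and 19.3 per 10000. Just inside it was 37.9, 23.3, 24.9 and 33.8, from 4, 22, 3 and 27 cells. Cycling is therefore a range of a per-cell score here, and after depletion under vehicle the 2 sides of the cut stood close to each other.

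The rule favours the end of the cycle. The summed rate of the G2 and mitosis genes had a median of 55.5, 57.0, 80.0 and 64.5 per 10000 UMIs in cycling cells against 4.46, 5.61, 4.72 and 5.29 in the others. That of 30 S phase genes was 10.1, 10.8, 8.19 and 7.85 against 2.86, 3.09, 2.82 and 2.92. Only 6, 25, 1 and 12 cycling cells held more S phase than G2 and mitosis UMIs, which is 14.3% and 14.3% under vehicle and 2.78% and 5.15% under tamoxifen. In the 1 such cell before depletion under tamoxifen the median log2 ratio of type 2 genes over non-cycling cells was -8.48. There it was -6.26 for type 1 genes, -7.80 for transitional genes and -6.09 for lineage factors. That cell held 41767 UMIs, and whether it was an immune-marker barcode was not recorded, so it may not be a tumour cell. Among cells outside the cut 21, 180, 23 and 257 (2.53%, 2.91%, 2.60% and 3.78%) reached the median S phase rate of the cycling cells of their library, so cells in early S phase can lie outside the group described.

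Cycling cells stood above the other epithelial cells of their library in genes of the cell cycle and below them in few genes. A gene was called higher or lower when it reached 10 CPM in either sum of every library and stood 2-fold or more to 1 side in each of the 4, with 1 CPM added before the log2 ratio. Intervals of ratios are exact 95% intervals from the UMI sums without that addition. Of 8902 genes that reached that level 331 were higher (3.72%) and 48 were lower (0.539%). Without the immune-marker barcodes the counts were 332 (3.73%) and 49 (0.55%), with 328 and 48 genes in common. Of the 331 genes 5 were those of the rule, 29 were in the G2 and mitosis list, 22 in the S phase list and 3 among the genes of cell cycle entry. Both shares include the rule and what moves with them, so they are a measure of scale and not a result. Of 15768 genes with 1 CPM in any sum, 3372 were above and 3876 below their non-cycling level in all 4 libraries. Those counts are the background for the list counts below.

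All 29 G2 and mitosis genes were higher, with a median log2 ratio of 4.79, 4.66, 5.24 and 4.97, where the median over all genes was -0.04, -0.02, -0.05 and -0.03. Cdk1, the kinase that starts mitosis, was at 272, 293, 344 and 324 CPM in cycling cells and at 4.25, 5.67, 3.88 and 4.16 CPM in the others. Its partner cyclin B1 (Ccnb1) was at 139, 128, 194 and 139.7 CPM against 0.929, 1.28, 1.18 and 1.58 CPM. The 4 libraries lay close together for both, with ratios from 5.46 to 6.14 and from 5.77 to 6.48. The chromatin protein Hmgb2 was at 1495, 1346, 1748 and 1797 CPM, but had 117 to 123 CPM in non-cycling cells, so its ratios of 3.47 to 3.89 were smaller. Hmmr, Cenpe, Cenpf, Tpx2 and Ckap2l, proteins of the spindle and the kinetochore, were with Ccnb1 and Cdk1 among the 10 highest genes outside the rule, and Hist1h1b, Pclaf and Cdca3 completed them.

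Of the 30 S phase genes 22 were called higher and 0 lower, with medians of 2.22, 1.96, 1.499 and 1.85. Without the immune-marker barcodes it was 20, since Mcm4 and Pola1 no longer passed. Rrm2, a subunit of ribonucleotide reductase, was at 90.4, 145, 74.4 and 97.6 CPM against 1.504, 2.75, 1.80 and 1.42 CPM. Pcna, the clamp of DNA polymerase, had a wide base in non-cycling cells of 65.0, 69.0, 58.3 and 67.1 CPM and reached 211, 188, 136 and 175 CPM in cycling cells. Of the 30 genes 29 were above their non-cycling level in all 4 libraries, and Ung, a uracil glycosylase, was the exception with log2 ratios of -0.50, 0.26, 0.32 and -0.70. Its values before depletion without the immune-marker barcodes were -1.01 and -0.44, so the direction turned under tamoxifen.

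Outside these lists the highest genes were of the same kind. Aspm, Racgap1, Cdca8, Kif2c and Shcbp1, which act at the spindle or in cytokinesis, and the kinase Pbk stood at 40.9 to 158 CPM in cycling cells with ratios between 4.75 and 5.95. Hist1h1b, a linker histone made in S phase, was at 200.1, 198, 308 and 197 CPM, and its cells were few, 20, 87, 17 and 97 of the cycling cells. Hist1h2ap was at 139, 46.2, 117 and 169.5 CPM. Histone genes have near-identical copies, so the split of reads between them is uncertain.

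Genes that set the entry into the cycle did not move as a block. Of 22 cyclin D, CDK, CDK inhibitor, retinoblastoma family, E2F and Myc genes 3 were called higher (Cdkn2c, Cdkn2d and Rbl1) and 1 lower (Ccnd2). Their median ratio was 0.16, 0.12, 0.15 and 0.32. At least 10 CPM in every library was reached by 19 of them.

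The 3 D-type cyclins were each below their non-cycling level in all 4 libraries, by different amounts. Ccnd2 was at 10.4, 9.28, 8.96 and 8.51 CPM in cycling cells against 41.6, 32.0, 33.8 and 25.7 CPM. Its log2 ratios were -1.91 (-2.88 to -1.25), -1.68 (-2.22 to -1.38), -1.80 (-2.83 to -1.13) and -1.49 (-2.01 to -1.20). They rest on 14, 49, 13 and 54 UMIs, and the 13 came from 1 cell. Before depletion most of these UMIs were in immune-marker barcodes: without them Ccnd2 was at 1.55 CPM under vehicle, from 2 UMIs, and had 0 UMIs under tamoxifen, which allows up to 2.17 CPM, against 39.2 and 30.9 CPM in non-cycling cells. The values after depletion do not involve them. Ccnd3 was at 86.0, 86.4, 103 and 87.5 CPM against 172, 139, 159 and 144 CPM, with ratios of -0.99, -0.68, -0.63 and -0.72. Ccnd1 was the closest of the 3 to its non-cycling level, at 219, 193, 233 and 218 CPM against 248.8, 247, 265 and 267 CPM.

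Among the inhibitors those of the INK4 class split. Cdkn2c (p18) was at 28.9, 21.8, 41.3 and 27.1 CPM in cycling cells against 4.02, 2.94, 2.90 and 3.02 CPM, with ratios of 2.53 to 3.44. Cdkn2d (p19) was at 29.6, 51.5, 53.0 and 38.8 CPM against 6.55 to 7.52 CPM. Cdkn2a, which codes for p16 and p19Arf, was at 223, 353, 259.7 and 373 CPM against 292, 375, 391 and 444 CPM, lower in cycling cells of all 4 libraries and never by 2-fold.

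The CIP/KIP class split too. Cdkn1b (p27) was at 90.4, 85.1, 115 and 102 CPM in cycling cells against 57.5, 58.1, 59.6 and 56.3 CPM, with ratios of 0.64, 0.54, 0.94 and 0.85. Cdkn1a (p21), a target of p53, was at 77.8, 134, 43.4 and 53.5 CPM against 154, 181, 91.4 and 104 CPM, with ratios of -0.98, -0.43, -1.06 and -0.95. Neither passed the 2-fold rule.

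Of the kinases, Cdk4 was above its non-cycling level in all 4 libraries (217, 264, 185 and 219 CPM against 137, 178, 135 and 144) and Cdk6 below it (17.8, 19.5, 5.51 and 11.7 CPM against 29.1, 30.5, 21.1 and 24.6). Rbl1 (p107), an E2F target itself, was at 33.4, 26.9, 26.9 and 30.3 CPM, with ratios of 1.35 to 1.82, while Rb1 and Rbl2 stayed within 0.39 of 0. E2f1 had ratios of 1.97, 1.86, 1.23 and 1.83 but stood under 10 CPM in 1 library and was not counted. Mycn was above its non-cycling level in all 4 libraries, at 23.7, 23.7, 25.5 and 16.6 CPM against 14.5, 12.1, 13.1 and 10.5. Myc was not, at 20.01, 34.7, 18.6 and 20.5 CPM against 31.2, 31.9, 30.01 and 35.9.

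**Figure D2:**
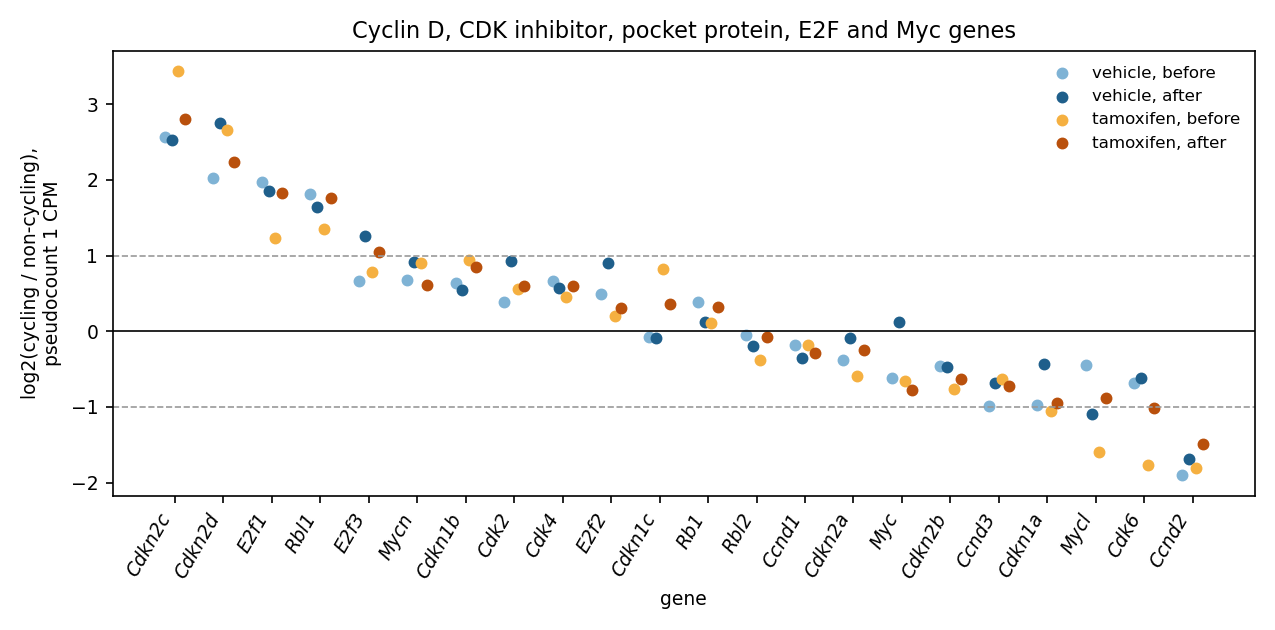
Log2 ratio of cycling over non-cycling epithelial cells (y axis, 1 CPM added) for 22 genes of cell cycle entry (x axis, in order of their mean), 1 point a library in 4 colours. Dashed lines mark 2-fold. Cdkn2c, Cdkn2d and Rbl1 lie above 1 in all 4 libraries, Ccnd2 lies below -1 in all 4, and Ccnd1 lies between -0.35 and -0.18.

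Cycling cells held the alveolar type 2 programme. Of its 15 genes 0 were called in either direction, and the median ratio was -0.47, -0.11, -0.10 and -0.10. Sftpc, which codes for surfactant protein C, was at 47013, 62950, 56875 and 68952 CPM in cycling cells against 65192, 66355, 66503 and 68881 CPM. The level before depletion under vehicle was the lowest, and 22% of it came from 1 cell. The surfactant genes Sftpb and Sftpa1 had ratios between -0.43 and -0.05, and Sftpd was above its non-cycling level in all 4 libraries (ratios of 0.13, 0.11, 0.39 and 0.12).

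Scd1 and Lyz2 were among the type 2 genes farthest below. Scd1, a fatty acid desaturase, was at 209.7, 205, 214 and 228 CPM in cycling cells, nearly level across libraries, against 832, 425, 545 and 417 CPM. Its ratios were -1.98 (-2.16 to -1.82), -1.05 (-1.14 to -0.97), -1.35 (-1.52 to -1.19) and -0.87 (-0.95 to -0.80), so it missed the rule in 1 library. Lyz2 was at 2452, 2405, 2069 and 1494 CPM against 5446, 4080, 3412 and 2982 CPM. Lyz1 and Lyz2 are near-identical copies and their split is uncertain.

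Single cells showed what the sums do not. The middle 50% of cycling cells had 184 to 1027, 340 to 1387, 437 to 1066 and 575 to 1179 UMIs of type 2 genes per 10000, where the others had 183 to 1966, 201 to 1794, 157 to 1379 and 216 to 1459. The cycling cells thus spread less, with an upper quartile below that of the non-cycling cells in all 4 libraries. For the transitional list described next the upper quartiles were 42.7, 53.3, 31.4 and 42.9 per 10000 against 48.0, 89.6, 59.4 and 78.4, while the medians were 23.1, 34.1, 18.5 and 27.6 against 19.5, 36.5, 26.3 and 32.5. Deeper cells give steadier rates, and the part of depth in this narrowing was not tested.

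Genes of the transitional or high-plasticity state, a state of injured or advanced alveolar tumour epithelium, were below their non-cycling level as a list. Their median was -0.54, -0.62, -0.97 and -0.94, and 10 of 12 were below their non-cycling level in all 4 libraries, but only Cldn4 was called, against 0.539% of all genes. Cldn4, a tight junction claudin that marks this state, was at 47.4, 64.0, 15.2 and 57.9 CPM against 111, 151, 106 and 126 CPM. Its ratios were -1.21 (-1.61 to -0.87), -1.23 (-1.40 to -1.08), -2.73 (-3.48 to -2.21) and -1.11 (-1.28 to -0.97). The integrin Itga2 was at 141, 106, 22.7 and 76.5 CPM against 203, 225, 175 and 165 CPM, and Clu, a secreted chaperone, at 1947, 2168, 1260 and 2192 CPM against 2356, 2942, 3591 and 3823 CPM. Hmga2, a chromatin protein of embryonic and advanced tumour tissue, had 0 UMIs in the cycling cells of both libraries before depletion, which allows up to 2.22 and 2.07 CPM, and 85.8% of its 49.3 CPM after depletion under vehicle came from 1 cell.

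Type 1 genes were lower in part. Their median was -0.35, -0.60, -0.44 and -0.93, with 8 of 11 below the non-cycling level in all 4 libraries and 0 called. Ager, the receptor that marks type 1 cells, was at 747, 879.9, 755 and 768 CPM against 756, 879, 852 and 850.1 CPM. The homeodomain protein Hopx was at 73.4, 40.2, 44.1 and 35.6 CPM against 94.0, 87.0, 125 and 80.5 CPM. With non-cycling cells matched on depth the mean of the 4 medians was -0.17 in place of -0.58.

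Gastric and liver genes gave no common direction. The median ratio of intestinal genes was below 0 in all 4 libraries, though their summed level was not below its non-cycling level in all of them. The gastric median was -0.61, -0.24, 0.03 and -0.18, and 1 of the 5 genes that reached 10 CPM was called, Ctse. Ctse, an aspartic protease of the stomach, was at 26.7, 33.0, 21.4 and 27.8 CPM in cycling cells and at 61.5, 80.5, 77.5 and 98.0 CPM in the others. Its ratios of -1.17 (-1.72 to -0.73), -1.26 (-1.51 to -1.07), -1.81 (-2.42 to -1.35) and -1.78 (-2.04 to -1.61) were below -1 under both labels. Gkn2, a secreted stomach protein, was near its non-cycling level after depletion, at 2372 and 2293 CPM against 2299 and 2037. Before depletion under tamoxifen its 2862 CPM came for 72.4% from 1 cell.

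The intestinal median was -0.45, -0.31, -0.57 and -0.29, with 6 of the 10 genes above 1 CPM lower in all 4 libraries. Of that list 2 genes reached 10 CPM in all libraries and Tff3, a trefoil peptide of goblet cells, was called lower, at 1.48, 4.74, 0 and 0.315 CPM against 22.4, 11.6, 32.6 and 13.8 CPM. Phgr1 was higher in all 4, at 433, 198, 161 and 199.9 CPM against 132, 182, 108 and 123, with 52.1% of the first value from 1 cell. The liver list, genes of plasma proteins, had medians of 0.39, 0.10, -0.33 and 0.00 with 0 of 7 called. Trf and Rbp4, the carriers of iron and of retinol, had ratios of -0.19, 0.03, -0.84 and 0.11 and of 0.10, -0.25, -0.98 and -0.15.

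Lineage factors were level. Of 16 factors 13 reached 10 CPM and 0 were called. Nkx2-1 was at 212, 189.7, 277 and 213 CPM in cycling cells against 260.1, 204, 256 and 225 CPM. Foxa1, Foxa2, Gata6 and Cebpa, factors of lung and gut endoderm, had ratios between -0.35 and 0.17. Hnf4a had ratios of 0.09 (-0.26 to 0.43), -0.24 (-0.44 to -0.06), -1.81 (-2.38 to -1.37) and -0.25 (-0.40 to -0.12). The third is the value from 9 cells given above.

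**Figure D3:**
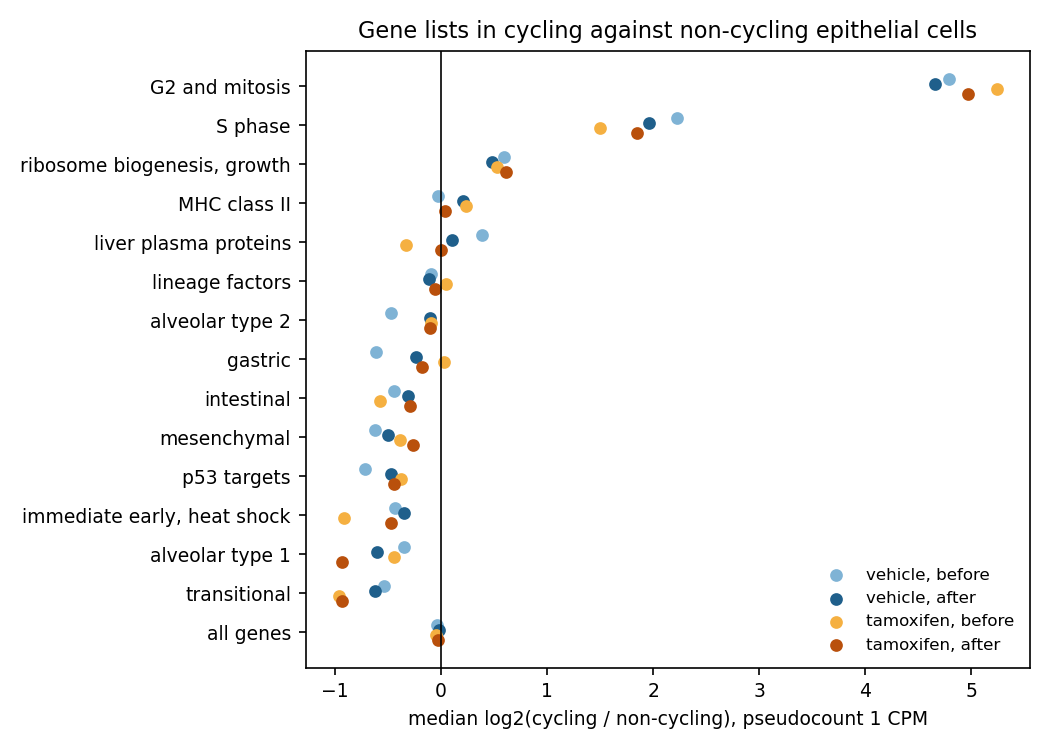
Median log2 ratio of cycling over non-cycling epithelial cells (x axis, 1 CPM added) for 14 gene lists and for all genes (y axis), 1 point a library in 4 colours. The cell cycle lists lie at 1.499 to 5.24, the growth list at 0.48 to 0.61, the transitional list at -0.97 to -0.54, and all genes at -0.05 to -0.02.

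**Figure D4:**
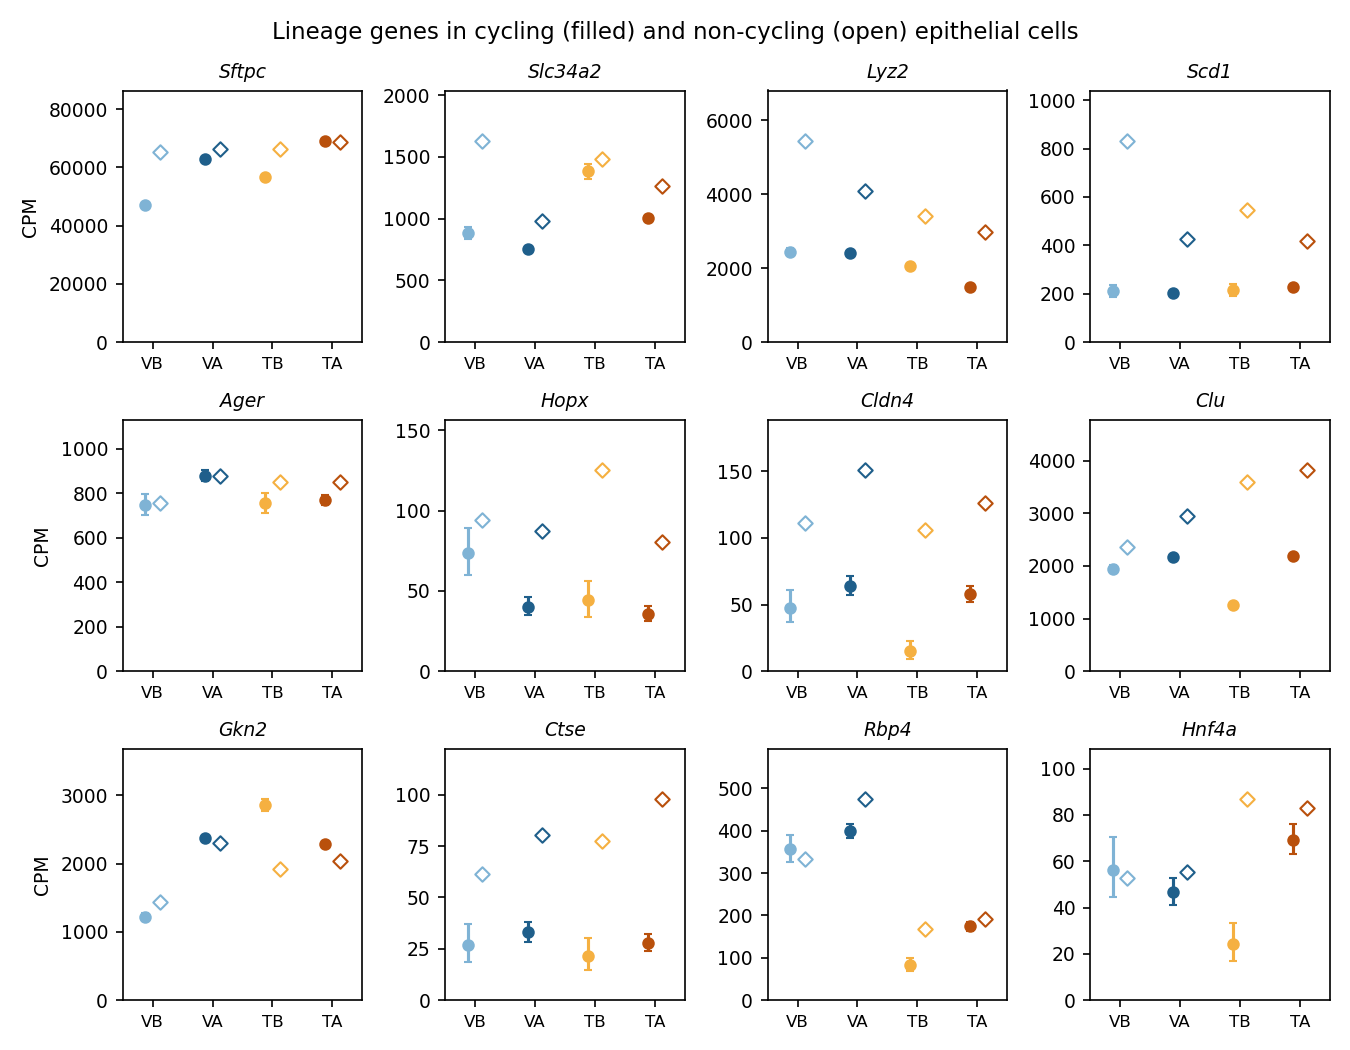
Level (y axis, CPM, from 0) of 12 lineage genes in cycling cells (filled circles, bars are exact 95% Poisson intervals) and non-cycling cells (open diamonds) of the 4 libraries (x axis: VB and VA, vehicle before and after depletion, TB and TA, tamoxifen before and after). Scd1, Lyz2, Cldn4, Ctse and Clu are lower in cycling cells of all 4 libraries, and Sftpc after depletion lies within 0.08 log2 units of its non-cycling level.

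Counted per cell, lineage programmes were about as frequent in cycling as in non-cycling cells. With each cell thinned to 2000 UMIs and a programme called at 2 UMIs of its list, type 2 genes were present in 95.2%, 99.4%, 100% and 99.6% of cycling cells against 96.6%, 98.8%, 96.6% and 98.5% of the others. Type 2 with gastric or intestinal genes occurred together in 54.8%, 61.7%, 38.9% and 61.4% against 46.3%, 56.2%, 45.7% and 56.8%. The intervals of the cycling share (38.7 to 70.2, 54.1 to 68.9, 23.1 to 56.5 and 54.8 to 67.7) held the non-cycling share in all 4. Barcodes with Ptprc and no epithelial gene, where such RNA is background, gave 2.58% and 3.10% before depletion, at median depths of 5764 and 5986 UMIs, but 71.0% and 77.5% for type 2 genes alone. At full depth both programmes were in 92.9%, 98.9%, 91.7% and 97.9% of cycling cells against 92.3%, 96.1%, 91.9% and 93.7% of the others. In barcodes with Ptprc this was 13.9% and 16.3% before depletion. Few genes gave most UMIs of the gastric and intestinal lists. After depletion Gkn2 was at 2372 and 2293 of the 2759 and 2731 CPM summed over gastric genes in cycling cells. Phgr1 was at 198 and 199.9 of the 271 and 223 CPM of intestinal genes. How many cells met the call through these genes alone was not counted.

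The other programmes moved little. Type 1 genes were present in 71.4%, 76.6%, 58.3% and 67.0% of thinned cycling cells against 69.4%, 77.4%, 65.2% and 72.2%. Liver genes were present in 61.9%, 71.4%, 55.6% and 67.4% against 57.8%, 64.2%, 61.7% and 64.2%, over a background of 24.9% and 32.6% in Ptprc barcodes. Transitional genes were present in 88.1%, 88.0%, 86.1% and 91.4% against 74.7%, 86.7%, 84.0% and 87.9%, over a background of 52.1% and 59.3% in Ptprc barcodes. The transitional shares of cycling cells lay above the non-cycling ones in all 4 libraries, while the summed level of the list lay below (4674, 4882, 3218 and 4123 CPM against 5449, 7228, 6748 and 7219).

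The 48 lower genes held no list as a whole. Among the 10 lowest were Cbr2, a carbonyl reductase of airway and alveolar cells, and Aox3, an aldehyde oxidase. Cbr2 was at 94.1, 73.7, 31.0 and 40.4 CPM against 334, 229, 158 and 169 CPM, and Aox3 at 66.7, 53.4, 39.3 and 48.2 CPM against 205, 159.7, 164 and 165 CPM. Both were low in cycling cells of every library. The others were Mcpt8, Onecut2, Scgb3a2, Tiam2, Lrp1b, Rarb, Ptprn and Ccnd2, most of them at under 20 CPM in cycling cells. Scgb3a2, an airway secretoglobin, was at 4.45, 38.3, 17.9 and 6.94 CPM against 109, 165, 145 and 109 CPM, and Mcpt8, a mast cell protease family gene known from basophils whose family holds close copies, at 0.741, 0.947, 0 and 2.37 CPM against 22.7, 14.6, 30.5 and 35.2. Of 14 leading genes of epithelial states seen earlier in these data Cldn4, Unc13c and Pyy were called lower and 0 higher. Of 10 airway genes 5 reached 10 CPM and 2 were called lower, with list medians of -0.29, -0.60, -0.94 and -0.83. The summed list was at 279, 176, 737 and 432 CPM against 265, 700, 571 and 1029 CPM, lower only after depletion. Without the immune-marker barcodes Scgb1a1 of this list was called lower, at 0, 13.8, 15.9 and 15.3 CPM against 20.6, 370, 37.2 and 488. The part of airway cells among the non-cycling cells was not tested.

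Genes of growth and of stress were set apart as groups, though not by 2-fold. All 10 genes of ribosome biogenesis and growth were above their non-cycling level in all 4 libraries, with medians of 0.60, 0.48, 0.52 and 0.61 and 0 called. Odc1, which starts polyamine synthesis, was at 138, 115, 123 and 102 CPM against 61.9, 59.2, 53.4 and 45.9 CPM, and Ncl (nucleolin) at 729, 718, 501 and 558 CPM against 444, 526, 392.4 and 416. All 10 immediate early and heat shock genes were below it, with medians of -0.43, -0.35, -0.91 and -0.47 and 0 called. Fos was at 1711, 2072, 1433 and 1986 CPM against 2056, 2376, 2435 and 2566 CPM. These genes also respond to the handling of tissue, whose part was not tested.

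Targets of p53 had medians of -0.72, -0.47, -0.38 and -0.44 with 0 called, on mice whose tumours are made to lose p53. The third was -0.80 without the immune-marker barcodes. Mdm2, a classical p53 target, was level at 42.2, 39.2, 39.3 and 40.4 CPM against 39.1, 38.6, 38.8 and 38.9. Outputs of the MAPK pathway were near 0 at -0.10, 0.03, -0.58 and -0.09, and within the list the factor Etv4 was above its non-cycling level in all 4 libraries (30.4, 32.2, 57.9 and 57.6 CPM against 22.1, 24.3, 31.6 and 33.2). MHC class II genes, which type 2 cells express, had medians of -0.03, 0.20, 0.24 and 0.04, and mesenchymal genes of -0.62, -0.50, -0.39 and -0.27, of which the third was -0.92 without the immune-marker barcodes.

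Between treatment labels the cycling cells differed in few genes. Where a gene had to reach 10 CPM under at least 1 label in each pair and to differ 2-fold in 1 direction before and after depletion, 22 of 9006 genes were higher under the tamoxifen label (0.244%) and 53 were lower (0.588%). In non-cycling cells 37 of 8985 were higher (0.412%) and 81 lower (0.902%). In common were 10 higher genes, 45.5% of the cycling and 27.0% of the non-cycling calls, and 28 lower genes, 52.8% and 34.6%. Of the cycling calls 20 of 22 and 49 of 53 had the same sign in non-cycling cells of both pairs. Over all 15768 genes with 1 CPM in any sum, 4992 were higher and 5989 lower in both pairs of non-cycling cells. Without the immune-marker barcodes the cycling counts were 23 (0.255%) and 57 (0.632%), and the non-cycling ones 38 (0.423%) and 86 (0.956%).

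The cell cycle machinery was close between labels, with a tilt between its phases. The G2 and mitosis list had a median log2 ratio of tamoxifen over vehicle of 0.28 before and 0.13 after depletion, and 0 of 29 genes were called. S phase genes had a median of -0.42 before and -0.38 after depletion, with 22 of 30 genes lower and 1 higher in both pairs. Of 15768 genes with 1 CPM in any sum, 4980 were lower and 3684 higher in both pairs in cycling cells. The share of cycling cells with more S phase than G2 and mitosis UMIs, given above, was also lower under tamoxifen in both pairs. Before depletion that share rests on 6 and 1 cells, and it was not recounted without the immune-marker barcodes. In non-cycling cells the S phase medians were -0.18 and -0.36, with 19 genes lower in both pairs, where 5989 of the 15768 genes were. Ccne1, the cyclin of the entry into S phase, was the 1 gene called, at 19.3, 25.6, 7.58 and 11.98 CPM. Without the immune-marker barcodes its first value was 12.4 CPM and it was no longer called, with ratios of -0.99 and -1.03.

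The sums also differ in number of cells and in depth, and the immune-marker barcodes are in the libraries before depletion, so the share of the top cell is given for the genes described singly. Cdkn1a was lower under tamoxifen in cycling cells, with ratios of -0.83 (-1.32 to -0.38) and -1.31 (-1.51 to -1.13), and in non-cycling cells, with -0.75 and -0.79. Sox9, a factor of lung progenitors, was at 48.2, 50.6, 79.9 and 72.7 CPM, with ratios of 0.72 and 0.51 in cycling and -0.06 and 0.26 in non-cycling cells. Etv4 had ratios of 0.91 and 0.82 against 0.50 and 0.43. None of the 3 passed the rule, and 1 cell held at most 15.9% of the UMIs of any of them in a library.

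Intestinal and liver genes were lower under the tamoxifen label in the median of both pairs, as were transitional and type 1 genes. In cycling cells the intestinal median was -1.37 and -1.32 and the liver median -1.31 and -0.58, where non-cycling cells had -0.88 and -1.25, and -0.58 and -0.31. Without the immune-marker barcodes the intestinal medians before depletion were close, at -1.39 in cycling and -1.34 in non-cycling cells. Only 3 of the 10 intestinal and 8 of the 20 liver genes reached 10 CPM in both pairs of cycling cells. Most genes behind both medians thus had few UMIs before depletion. Vil1, the villin of the brush border, was at 18.5, 21.2, 4.82 and 8.04 CPM and was called, with 40.0% and 42.9% of the values before depletion from 1 cell each. Rbp4 was at 356, 399, 84.0 and 174 CPM and was called, with ratios of -2.07 and -1.19 and 57.8% of the first value from 1 cell, and it held 334, 475, 167 and 193 CPM in non-cycling cells. Ttr and Apoa1, plasma carriers of thyroxine and of lipid, were called too, but 97.7% and 93.4% of their UMIs before depletion under vehicle came from 1 cell. The gastric median was 0.64 and 0.00 with 0 called, the transitional median -0.62 and -0.45 with 9 of 12 genes lower in both pairs and 0 called, the type 1 median -0.32 and -0.26 with 0 called, and the type 2 median 0.21 and 0.06.

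Of the 10 genes highest under the tamoxifen label St6galnac3, a sialyltransferase, was at 37.1, 54.6, 105 and 228 CPM in cycling cells and 68.3, 60.3, 228 and 243 CPM in the others, with 48.0% of the first value from 1 cell. Pf4, known as a platelet chemokine, was at 105, 193, 298 and 493 CPM, carried by 25, 103, 24 and 172 of the cycling cells, 31.2% of the first value from 1 cell, with ratios of 1.504 and 1.35 and nearly the same in non-cycling cells (1.55 and 1.53). Ogfrl1, Fhl1, Thsd1, Adamts18, Ptprt, Fbn2 and Bpifa1 were further members, of which Bpifa1 had 98.2% of its UMIs before depletion under vehicle in 1 cell, and Fbn2, Ptprt and Adamts18 had 59.2%, 63.6% and 50% of theirs before depletion under tamoxifen. Serpinf1, a secreted serpin, was at 7.41, 5.31, 22.04 and 17.5 CPM in cycling cells, with ratios of 1.45 and 1.55, where non-cycling cells had 0.23 and 0.39, and 50% of its UMIs before depletion under vehicle were in 1 cell. The gap between both was not tested.

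Of the 10 lowest genes Smim6 was spread over the most cells, at 59.3, 76.9, 9.64 and 7.88 CPM from 27, 127, 7 and 34 cells, with 57.1% of the third value from 1 cell and ratios of -2.50 (-3.55 to -1.79) and -3.13 (-3.74 to -2.86). Ckb, the brain type creatine kinase, was at 95.6, 129, 4.82 and 15.9 CPM from 13, 73, 7 and 46 cells, with at most 31.0% in 1 cell. Its ratios were -4.05 (-5.65 to -3.23) and -2.94 (-3.33 to -2.71) in cycling cells and -1.52 and -2.01 in non-cycling cells, where it was at 69.2, 95.1, 23.5 and 22.9 CPM. The vehicle libraries were both above both tamoxifen libraries. Retnla, a resistin-like secreted protein, was at 1526, 587, 163 and 13.6 CPM but came from 5, 45, 10 and 29 cells, with 50% of the first value in 1 cell. Apoc2, Ttr, Nrk, Ifi27l2b, Guca2a, Hsd17b2 and Plac8 completed the 10.

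**Figure D5:**
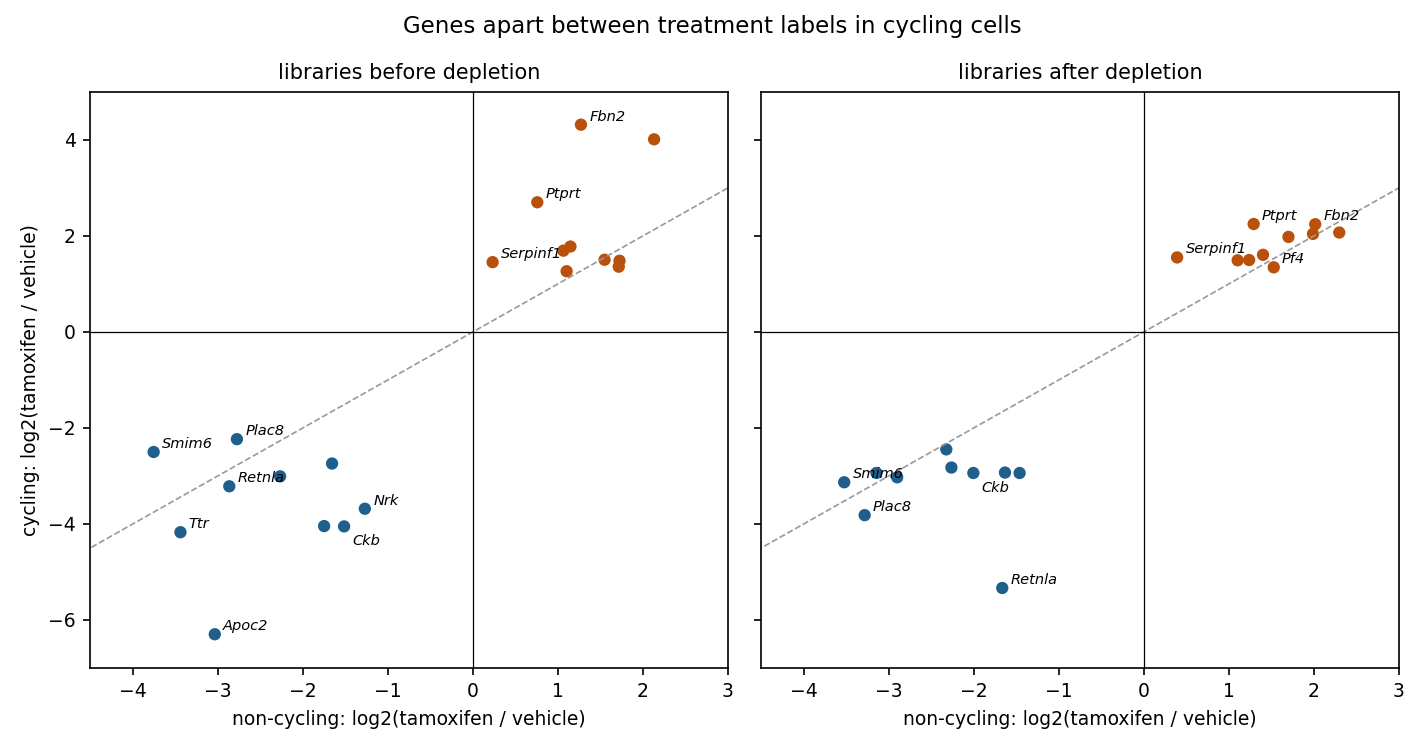
Log2 ratio of tamoxifen over vehicle labels in non-cycling (x axis) and cycling (y axis) epithelial cells for the 20 genes named from the cycling cells, in the pair before (left) and after depletion (right), with 1 CPM added. The dashed line marks equal ratios. The genes were chosen on the y axis of both panels, and all 20 points in each panel have the same sign on both axes, while Ckb lies at -4.05 and -2.94 against -1.52 and -2.01.

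A further comparison set cycling epithelial cells beside cycling cells with Ptprc, a pan-leukocyte gene, of the same libraries before depletion, 129 and 73 barcodes. The G2 and mitosis list had a median log2 ratio of epithelial over immune cells of 0.00 under vehicle and 0.17 under tamoxifen. The S phase list had -0.72 and -0.78, with 28 and 27 of 30 genes lower in the epithelial cells. Pcna was at 211 and 136 CPM against 437 and 365, and Rrm2 at 90.4 and 74.4 against 215 and 157. Without the 5 and 4 immune-marker barcodes the S phase medians were -0.84 and -0.94, with 30 and 28 genes lower.

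Genes of cell cycle entry differed between both kinds of cycling cell. Ccnd1 was at 219 and 233 CPM in cycling epithelial cells against 16.9 and 12.6 CPM in cycling immune cells. Ccnd2 was the reverse at 10.4 and 8.96 CPM against 150.5 and 100.5 CPM, with log2 ratios of -3.73 (-4.75 to -3.09) and -3.35 (-4.44 to -2.65). With the immune-marker barcodes left out it was at 1.55 CPM under vehicle, with a log2 ratio of -5.89 (-9.65 to -4.73), and at 0 UMIs under tamoxifen, at least 46.4-fold lower than in cycling immune cells by the floor of 3 UMIs. Cdk6 was at 17.8 and 5.51 CPM against 235 and 125. Cdkn2a was at 223 and 259.7 CPM against 21.1 and 22.2, and Mycn at 23.7 and 25.5 CPM against 0.469 and 0.966 CPM, each of the latter from 1 UMI. Ccnd3 was closer, at 86.0 and 103 CPM against 168 and 129.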

How the data were processed

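UMI counts by gene and barcode were deposited, made by the authors with Cell Ranger 7.0.1 per the file headers (7.2.0 per the submitters' processing notes) on mm10, per the same notes. They covered 32289 features, of which 32235 matched GENCODE M21. 1 further allele shared by all groups is not reported here. No doublet caller was run. The gate removed barcodes with Ptprc, Cdh5 or Col1a2, and 1 alternative left out cells above 60000 UMIs. UMIs of cycling and of non-cycling cells were summed per library and scaled to CPM by total UMIs. With 1 library per group nothing was tested: calls follow the size rule, and intervals are exact Poisson, conditional binomial and Clopper-Pearson 95% intervals. Cycling cells gave 1349259, 5277701, 1451580 and 6342063 UMIs. The members, lists and rules were chosen with earlier results of these data known. Named were Hnf4a, the 5 genes of the rule, the 10 highest and 10 lowest by the smallest ratio over libraries, 10 further high genes outside the lists, the 10 highest and lowest between labels, the 3 highest genes of each list, and all lineage factors and cell cycle entry genes. Unnamed gene models, mitochondrial, ribosomal, immunoglobulin and sex-linked marker genes were not named. Alternatives changed the cut, depth, scaling, minimum level, fold, pseudocount and libraries. Scripts were tested on simulated data. Python 3.11.15, numpy 2.4.6, scipy 1.17.1, pandas 2.3.3 and matplotlib 3.10.9 were used.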

Additional observations from a re-analysis of the deposited data

Results flagged for a closer look

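Ckb was above its non-cycling level in cycling cells under vehicle and below it under tamoxifen, with log2 ratios of 0.46 and 0.43 against -2.08 and -0.50 before and after depletion. The tamoxifen value before depletion rests on 7 UMIs. Agr2, a protein disulfide isomerase of secretory cells, went the other way, with -4.04 and -0.95 under vehicle against 1.44 and 1.77 under tamoxifen. Between labels Agr2 was higher under tamoxifen in cycling cells, with 3.63 before and 0.94 after depletion, and lower in non-cycling cells, with -1.85 and -1.78. Its UMIs came from 4, 28, 4 and 25 cycling cells, and 95.7% of those before depletion under tamoxifen from 1 cell. The 2 genes were picked out because both libraries of one label lay on one side and both of the other label, or both kinds of cell, on the other. The differences were not tested, and libraries of a label share their material.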

How the results depend on the processing

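No paired analysis was possible because each group has 1 library and shares no second replicate number with another. No named call changed sign: 42 genes called against non-cycling cells under 13 alternatives and 22 called between labels under 11. Of these values 454 and 206 stayed within the spread between libraries or pairs, and 92 and 36 moved beyond it. The alternative that left out immune-marker barcodes moved no count, share or lineage list median beyond its limit. Scaling moved the median of all genes by at most 0.10. The shares moved with the cut, to 3.33% before and 1.89% after depletion under vehicle and 2.22% after depletion under tamoxifen at 8 UMIs per 10000, and to 7.11%, 4.42%, 5.75% and 4.72% at 2. Thinned to 2000 UMIs they were 7.11%, 5.02%, 6.62% and 5.95%, and at 10000 UMIs 3.46% and 4.06% after depletion. The mean of the 4 list medians was -0.54 (transitional) and -0.15 (intestinal) at a cut of 2, and -0.66, -0.55 and -0.26 for gastric, intestinal and liver genes without cells above 60000 UMIs. It was -1.01 for type 1 genes by the mean over cells and -0.17 with non-cycling cells matched on depth, and -0.70 for intestinal genes with 0.1 CPM added. Counts of calls are given as higher and lower, first for cycling against non-cycling cells, then between labels in cycling and in non-cycling cells. At 30 CPM they were 193 and 22, 9 and 23, and 16 and 31. At 1.5-fold they were 538 and 192, 107 and 195, and 101 and 183, and at 4-fold 178 and 3, 3 and 13, and 3 and 7. With no minimum 78 were lower against non-cycling cells, 62 and 136 differed between labels in cycling cells, and 156 were lower in non-cycling cells. By the mean over cells 41 were lower between labels in non-cycling cells. The libraries before depletion alone gave 153 lower against non-cycling cells, and those after it 86. Between labels the pair before depletion alone gave 302 and 400 in cycling and 72 and 137 in non-cycling cells, and the pair after it 68 and 144 in cycling cells. Asking for both pairs takes fewer genes by construction. Before depletion there are 42 and 36 cycling cells, 10 CPM stands for 13.5 and 14.5 UMIs, and single cells carry much of many genes.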

Other observations

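Cycling cells with more S phase than G2 and mitosis UMIs could be set beside the rest after depletion, with 25 cells under vehicle and 12 under tamoxifen against 150 and 221. Over the non-cycling cells of their library the median log2 ratio of type 2 genes was 0.48 and 0.18 in the first and -0.19 and -0.10 in the second. That of transitional genes was -1.36 and -1.01 against -0.62 and -0.95, and that of gastric genes -0.89 and -1.72 against -0.22 and -0.19. Both libraries thus had the type 2 genes higher and the transitional and gastric genes lower in the S-leaning cells. Type 1 genes were higher there too, at -0.20 and -0.37 against -0.62 and -0.88. Liver genes were lower, at -0.20 and -0.46 against 0.09 and 0.01. Intestinal genes were higher under vehicle, at -0.13 against -0.23, and lower under tamoxifen, at -1.27 against -0.29. The S-leaning cells are few, with 622613 and 273325 UMIs in sum against 4655088 and 6068738 in the rest. Genes at a few CPM can therefore have 0 UMIs in them, and many gastric, intestinal and liver genes are that low. The part of depth in these medians and the differences themselves were not tested.

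The recombinase Cre, part of the activated allele, gave 2, 17, 5 and 30 UMIs in cycling cells, which is 1.48, 3.22, 3.44 and 4.73 CPM, against 2.43, 3.22, 3.29 and 3.08 CPM in non-cycling cells. The features for FlpO, GFP and tdTomato had 0 UMIs in cycling cells.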
